A study of Drosophila melanogaster with 2 samples.

Results

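The light-response machinery that acts after rhodopsin in the fly photoreceptor was examined through 10 genes: Galphaq, norpA, trp, trpl, inaD, inaC, ninaC, rdgA, Arr1 and Arr2. They were picked by name, and each was found by its FlyBase identifier in both deposited tables, out of 12083 genes listed in either. RNA of whole heads was sequenced from adult Drosophila melanogaster of strain w1118, a laboratory strain whose mutation in white leaves the eyes without screening pigment. One group was fed the control diet with added sucralose, an intensely sweet chlorinated sugar, and the other the control diet alone. Both were started on these diets at 4 to 7 days of age, kept on them for 6 days and used at 10 to 14 days. Each diet has 1 library, so there is no replicate error, no test of the diets is possible and no p-value is given. The labels give neither the sex of the flies, nor the number of heads, nor the time of day. The title of the study places it in the control of feeding, and it states no question about vision.

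In the fly eye, light-activated rhodopsin switches on a Gq protein whose alpha subunit stimulates phospholipase C, encoded by norpA. Hydrolysis of the membrane lipid PIP2 then opens the cation channels TRP and TRPL, and the calcium that enters both amplifies and ends the response. The scaffold INAD holds TRP, the phospholipase and an eye protein kinase C together, diacylglycerol kinase removes the lipid product, and arrestins silence the active rhodopsin. Mutations in many of these genes cause loss of the light response or degeneration of the retina.

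The libraries held 10.4 M uniquely assigned reads for the sucralose diet and 10.3 M for the control diet. All 10 genes were among the deeply counted ones, with 6375 to 180893 reads in the sucralose library and 6232 to 142642 in the control library. Folds below are the sucralose over the control library after scaling by the trimmed mean of M-values (TMM), with 95% exact binomial (Clopper-Pearson) intervals. These intervals cover counting error only, and they compare 2 libraries, not the diets.

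Most genes of the cascade were modestly higher in the sucralose library. The interval lay above 1 for 7 of the 10 (trpl, inaC, Arr2, inaD, Arr1, norpA and ninaC), held 1 for trp and Galphaq, and lay below 1 for rdgA. Among the 8889 genes with at least 50 summed reads, 17.3% had an interval above 1, 63.7% one that held 1 and 19% one below it. Intervals narrow with depth, however, and of the 306 genes with at least 10000 summed reads, a class chosen after the values were seen because it takes in all 10, 45.8% lay above 1, 18% held 1 and 36.3% lay below. None of the 10 reached 1.5-fold in either direction, against 1.96% of all genes that were at least 1.5-fold higher and 4.12% that were as much lower. The log2 difference was above 0 for 8 of the 10, against 49.6% of all genes and 55.2% of the 306. Its median was 0.24, against -0.002 for all genes and 0.025 for the 306. The count above 0 was 9 with total-count, upper quartile, DESeq2 or median scaling, through Galphaq, whose fold lies at 1. It was 7 when differences were centred on genes of like length, an alternative added after seeing the data, since trp then lay at -0.04. Without Arr1 and Arr2, the most abundant members, the median was 0.17. Whole-head RNA cannot tell more photoreceptor tissue from more RNA per photoreceptor. Nor can it tell reads of these genes in photoreceptors from any in other cells of the head.

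**Figure D1:**
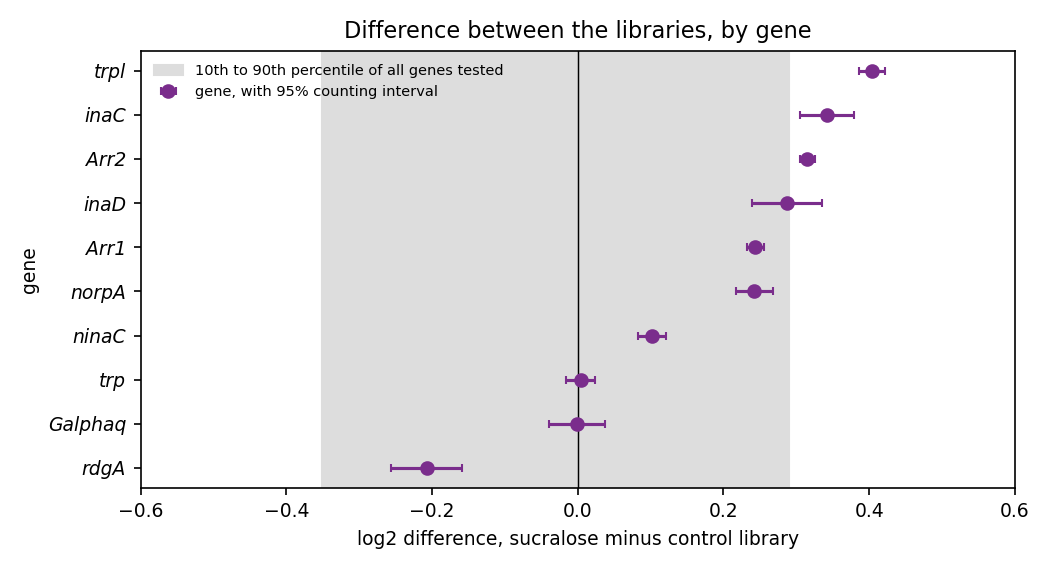
Log2 difference, sucralose minus control library, for each of the 10 genes (points, with 95% counting intervals), in order of size. The grey band runs from the 10th to the 90th percentile of all genes tested (-0.35 to 0.29); trpl, inaC and Arr2 lie beyond its upper end, while trp and Galphaq lie at 0 and rdgA is on the lower side.

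The first steps of the cascade did not share one value. Galphaq, the alpha subunit that couples rhodopsin to phospholipase C, had 11146 reads in the sucralose library and 10944 in the control library, or 189 RPKM (reads per kilobase of gene length per M reads) in each. Its fold was 0.999 (0.973 to 1.03). In a current annotation (BDGP6.54), 44.1% of the exon bases of Galphaq also belong to CG45086 on the same strand. CG45086 was not among the deposited genes found by symbol, and whether the Galphaq count holds reads of it cannot be told. The phospholipase gene norpA had 26513 and 21983 reads in the sucralose and control libraries, at 382 and 322 RPKM. Its fold of 1.18 (1.16 to 1.20) was apart from that of Galphaq, with a ratio of the folds of 1.18 (1.15 to 1.22).

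The channel genes differed from each other. The gene of the major light-activated channel, trp, had 41923 reads in the sucralose library and 41009 in the control library, at 969 and 962 RPKM. Its fold was 1.003 (0.989 to 1.02), an interval that holds 1. The gene trpl, whose product forms a second light-activated channel that moves between the rhabdomere and the cell body with light, had 60812 reads in the sucralose library and 45096 in the control library, at 1509 and 1137 RPKM. Its fold of 1.32 (1.31 to 1.34) was the highest of the 10 and exceeded 94.6% of all genes tested. The fold of trp over that of trpl was 0.758 (0.744 to 0.772), a ratio that does not depend on how the libraries are scaled. Per length, trp stood at 0.642 of trpl in the sucralose library and at 0.847 in the control library.

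The partners that INAD binds were therefore uneven. The scaffold gene inaD itself, with 7752 reads in the sucralose library and 6232 in the control library, was 1.22-fold higher (1.18 to 1.26). The kinase gene inaC, which encodes the eye protein kinase C needed to end the response, had 13392 and 10367 reads in the sucralose and control libraries and was 1.27-fold higher (1.24 to 1.30). With norpA, these make 3 of the 4 genes of the complex above 1, while trp was level. The fold of trp stood at 0.822 (0.793 to 0.852) of that of inaD, at 0.791 (0.769 to 0.815) of that of inaC and at 0.848 (0.829 to 0.867) of that of norpA. Among the 3 others the ratio of folds was 1.07 (1.04 to 1.11) for inaC over norpA, which excludes 1. It was 1.03 (0.993 to 1.07) for inaD over norpA and 1.04 (0.995 to 1.08) for inaC over inaD, and both of these intervals held 1. In RPKM, trp exceeded inaD 3.04-fold in the sucralose library and 3.70-fold in the control library.

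Of the genes that act in adaptation and lipid turnover, 1 was slightly higher and 1 was lower. The myosin III gene ninaC, whose kinase-myosin product carries calmodulin into the rhabdomere, had 45276 reads in the sucralose library and 41403 in the control library, at 899 and 835 RPKM, and was 1.07-fold higher (1.06 to 1.09). The diacylglycerol kinase gene rdgA, which converts diacylglycerol to phosphatidic acid, had 6375 and 7219 reads in the sucralose and control libraries, at 60.2 and 69.3 RPKM. It was the single member with an interval below 1, at a fold of 0.866 (0.838 to 0.896), which is 1.15-fold lower (1.12 to 1.19). Of all genes tested, 19.4% had a lower difference.

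The arrestin genes dominated the cascade in both libraries. Arr2, the major arrestin, had 180893 reads in the sucralose library and 142642 in the control library, at 11212 and 8979 RPKM, and a fold of 1.24 (1.24 to 1.25). Arr1, the less abundant arrestin, which also moves with light, had 129277 reads in the sucralose library and 107092 in the control library, at 5616 and 4725 RPKM, and a fold of 1.18 (1.17 to 1.19). The fold of Arr2 over that of Arr1 was 1.05 (1.04 to 1.06), a small difference resolved by the large counts. Per length, Arr2 was 1.996 times Arr1 in the sucralose library and 1.90 times in the control library. Both together made up 77.5% of the summed RPKM of the 10 genes in the sucralose library and 76.5% in the control library.

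Summed over the cascade, 523359 reads of the sucralose library and 433987 of the control library fell on the 10 genes, or 5.02% and 4.23% of all reads. The fold of the sum was 1.18 (1.18 to 1.19), and 1.14 (1.13 to 1.14) without the arrestins.

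**Figure D2:**
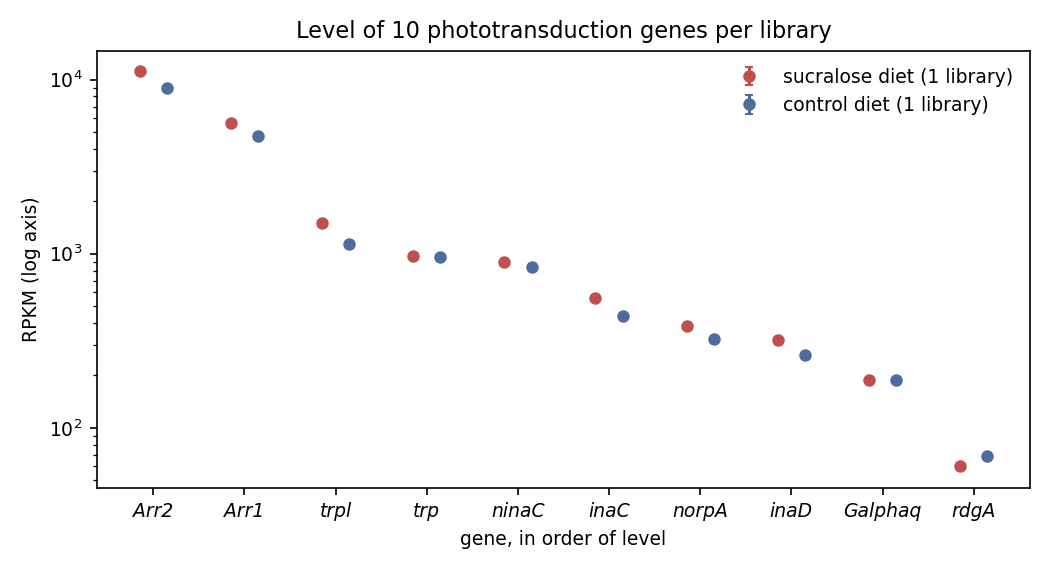
RPKM of the 10 genes on a log axis, in order of level, with the sucralose library left of the control library in each pair. Counting intervals are smaller than the points; the genes run from Arr2 (11212 and 8979 RPKM) to rdgA (60.2 and 69.3 RPKM), in the same order in both libraries.

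The order of the levels was the same in both libraries, falling per length through Arr2, Arr1, trpl, trp, ninaC, inaC, norpA, inaD, Galphaq and rdgA. None of the 9 neighbouring pairs had overlapping counting intervals in either library. The order rests on the deposited lengths, however, and these intervals do not cover an error in length. For norpA, next above inaD, that length is 6651 bases against 8296 in a current annotation. The closest neighbours were trp and ninaC, at a ratio of 1.08 in the sucralose library and 1.15 in the control library. By RPKM, Arr2 ranked 2 among all genes of the sucralose library and 4 in the control library, trpl 16 and 27, and trp 51 and 36. At the other end rdgA ranked 1258 in the sucralose library and 1116 in the control library. The levels of the cascade thus spanned 186-fold in the sucralose library and 129.6-fold in the control library.

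Set in order of fold, 38 of the 45 pairs of members had a ratio of folds whose interval excluded 1. Only 4 of the 9 neighbouring pairs did so: trpl over inaC (1.04, 1.01 to 1.07), norpA over ninaC (1.10, 1.08 to 1.13), ninaC over trp (1.07, 1.05 to 1.09) and Galphaq over rdgA (1.15, 1.10 to 1.20). The genes inaC, Arr2, inaD, Arr1 and norpA followed one another with no neighbouring pair apart, and trp and Galphaq were likewise not resolved. Intervals are narrow at this depth, and only 18% of the 306 genes with at least 10000 summed reads had one that held 1. The share for pairs of other genes was not computed.

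The visual pigments that start the cascade were mostly higher too. The major rhodopsin gene ninaE, used by the outer photoreceptors R1 to R6, had 498084 reads in the sucralose library and 330537 in the control library, a fold of 1.48 (1.47 to 1.48). The log2 difference of ninaE was 0.56, above the 90th percentile of all genes (0.29), so most genes tested had a lower fold. All 10 cascade genes did too, with intervals of the ratio to ninaE that excluded 1. That ratio was nearest to 1 for trpl, at 0.895 (0.883 to 0.907), followed by inaC at 0.857 (0.835 to 0.880) and Arr2 at 0.842 (0.835 to 0.849). It was lowest for rdgA, at 0.586 (0.566 to 0.606), with trp at 0.678 (0.669 to 0.688) and Galphaq at 0.676 (0.658 to 0.694). In RPKM, ninaE exceeded Galphaq 158-fold in the sucralose library and 107-fold in the control library. The rhodopsins of the inner photoreceptors were at 1.66-fold (1.62 to 1.69) for Rh4, 1.41-fold (1.38 to 1.44) for Rh3, 1.34-fold (1.21 to 1.49) for Rh6 and 1.18-fold (1.15 to 1.22) for Rh5. The ocellar rhodopsin gene Rh2 was at 1.02-fold (0.978 to 1.07), and Rh7 was at 0.650 (0.574 to 0.735). The median log2 difference over the 7 genes was 0.42, with 6 of 7 above 0, against 49.6% of all genes tested.

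**Figure D3:**
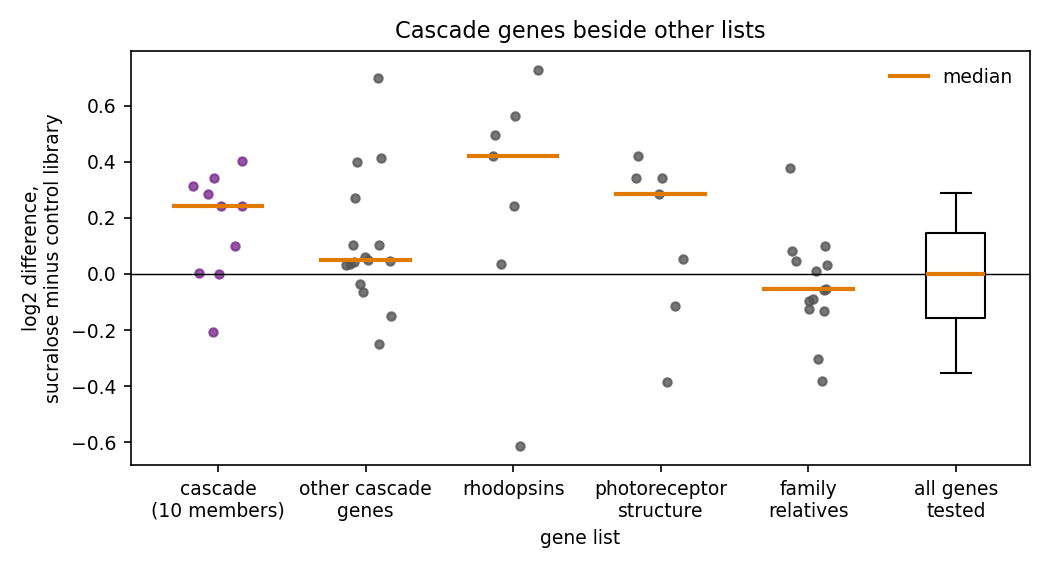
Log2 difference, sucralose minus control library, of each gene with at least 50 summed reads (points) in 5 lists, with list medians in orange; the box shows the middle 50 percent of all genes tested, with whiskers at the 10th and 90th percentiles. The medians are 0.24 for the 10 cascade genes, 0.05 for other cascade genes, 0.42 for rhodopsins, 0.29 for photoreceptor structure genes and -0.05 for family relatives.

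Other genes of the pathway were followed through a list of 23, of which 16 matched an identifier in the files and 7 (Ggamma30A, rdgC, Pld, PI4KIIIalpha, Xport-A, Xport-B and Camta) are not analysed here. Of the 16, 12 were above 0, 7 had an interval above 1 and 2 had one below it, with a median log2 difference of 0.05. Among all genes tested, 49.6% were above 0, 17.3% had an interval above 1 and 19% one below it. For the 306 genes with at least 10000 summed reads these shares were 55.2%, 45.8% and 36.3%. The gene of the 16 with the largest difference was Culd, a photoreceptor gene that acts in the uptake of rhodopsin and TRPL from the membrane. Culd had 7253 reads in the sucralose library and 4380 in the control library. It was 1.62-fold higher (1.56 to 1.69), the single gene of the 16 past 1.5-fold. The genes rtp and stops followed, at 1.33-fold (1.29 to 1.37) and 1.32-fold (1.23 to 1.42). The product of rtp, retinophilin, is a rhabdomere protein that works with NINAC, and that of stops keeps the phospholipase protein at its normal level. In the annotation 20.5% of the exon bases of rtp are shared with Mms19 on the other strand. The phosphatidic acid phosphatase gene laza was 1.21-fold higher (1.12 to 1.30).

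The beta subunit of the visual G protein, encoded by Gbeta76C, had 10041 and 9178 reads in the sucralose and control libraries and was 1.07-fold higher (1.04 to 1.10). The sodium-calcium exchanger gene Calx was also at 1.07-fold (1.03 to 1.12), and the calmodulin gene Cam at 1.03-fold (1.02 to 1.04). The genes with an interval below 1 were Nckx30C, a potassium-dependent sodium-calcium exchanger gene, at 0.841 (0.812 to 0.870), and Fkbp59, an immunophilin gene whose product binds TRPL, at 0.9001 (0.828 to 0.978). The remaining 7 genes had intervals that held 1. Among these, the lipid transfer gene rdgB was at 1.04-fold (0.994 to 1.08), the CDP-diacylglycerol synthase gene Cds at 1.02-fold (0.990 to 1.06) and the phosphatidylinositol synthase gene Pis at 1.02-fold (0.979 to 1.07). The diacylglycerol lipase gene inaE was at 0.956 (0.896 to 1.02), the lipid kinase gene PIP5K59B at 0.976 (0.926 to 1.03) and the rhodopsin kinase gene Gprk1 at 1.03-fold (0.964 to 1.11). The last, inaF-B, was at 1.04-fold (0.937 to 1.16), and neighbouring inaF genes take in 86.6% of the bases of its exons.

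Relatives of the cascade genes from the same protein families, used widely outside the eye, lay around or below the control level. Of 14 with at least 50 summed reads, 6 were above 0, none had an interval above 1 and 5 had one below it, with a median of -0.05. Over all genes tested these shares were 49.6%, 17.3% and 19%. In pairs, norpA had 1.17 times (1.12 to 1.23) the fold of the other beta-type phospholipase gene, Plc21C, which was itself at 1.01-fold (0.964 to 1.05). The kinase gene inaC had 1.35 times (1.27 to 1.43) the fold of Pkc53E, at 0.939 (0.890 to 0.992), and Arr2 had 1.29 times (1.15 to 1.45) that of the non-visual arrestin gene krz, at 0.963 (0.858 to 1.08). Galphaq had 1.09 times (1.04 to 1.15) the fold of Galphao, at 0.917 (0.878 to 0.956). For rdgA the ratio over Dgk was below 1, at 0.818 (0.741 to 0.904), with Dgk at 1.06-fold (0.964 to 1.16). The third gene of the TRP channel subfamily, Trpgamma, had 10 and 15 reads in the sucralose and control libraries, too few for a comparison. Of the 21 pairs fixed for comparison, the interval excluded 1 in 20, all but trp over Trpgamma. Of these pairs 10 were members over ninaE, and no share was computed for other pairs of like depth.

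Other G protein subunit genes of the list included Galphai, at 0.764 (0.667 to 0.876), Gbeta13F, at 0.810 (0.772 to 0.849), and Ggamma1, at 0.913 (0.892 to 0.935). Galphas was at 0.935 (0.867 to 1.01), cta at 1.07-fold (0.909 to 1.27) and Galphaf, with 85 and 63 reads in the sucralose and control libraries, at 1.32-fold (0.944 to 1.86). The phospholipase C gamma gene sl was at 1.02-fold (0.872 to 1.20), Pkc98E at 1.03-fold (0.961 to 1.11) and Dgkepsilon at 0.962 (0.877 to 1.06).

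Genes of photoreceptor structure and identity, outside light signalling, included both directions. Of 7 that matched, 4 had an interval above 1, against 17.3% of all genes tested, and 2 had one below it, against 19%. Their median log2 difference was 0.29 and their mean 0.14. The highest was the homeobox gene oc, at 1.34-fold (1.18 to 1.53), and the lowest was eys, which encodes the matrix protein between the rhabdomeres, at 0.765 (0.734 to 0.798).

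Marker genes of further tissues and cell types were compared between the same 2 libraries. Not all of them are confined to the head, and the neuronal ones are not separate from photoreceptors, which are neurons. Of all genes tested, 49.6% were above 0 and 4.12% were at least 1.5-fold lower. Of 9 glial markers, 2 were above 0 and 5 were at least 1.5-fold lower (median -0.59), with 0.184% of reads in the sucralose library and 0.286% in the control library, from Gat at 0.365 to wrapper at 1.08-fold. The glial list was split, since the other 4, repo among them, had intervals that held 1. Among 8 neuronal markers 1 was above 0 (median -0.22), with 0.648% and 0.727% of reads in the sucralose and control libraries, from nrv3 at 0.711 to nSyb at 1.15-fold. None of 8 muscle markers was above 0 (median -0.68), with 0.227% and 0.339% of reads in the sucralose and control libraries, from Act88F at 0.324 to Mlp60A at 0.917. All 9 gut enzyme genes tested were at least 1.5-fold lower (median -4.29), with Jon99Cii and LysC at 0 reads in the sucralose library and Mal-A1 the highest, at 0.223. Of 5 fat body markers tested, 4 were above 0 (median 0.18), from Lsp2 at 0.177 to the yolk protein gene Yp1 at 5.54-fold. Yp1 had 113 reads in the sucralose library and 20 in the control library. Corneal lens and cone cell genes had a median of 0.04 over 5 tested, from retinin at 0.397 to Cpr72Ec at 2.41-fold. Clock genes had a median of 0.01 over 8, with Clk the highest, at 1.80-fold (1.56 to 2.07), and tim the lowest, at 0.557 (0.537 to 0.578), and some photoreceptor genes cycle daily. The part of tissue content, of sex, which the labels do not give, and of collection time in the values of the cascade was not tested.

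Gene length was set beside the differences, since the 10 genes run from 1547 bases (Arr2) to 10147 bases (rdgA). Across the 10 genes Spearman's rho between length and log2 difference was -0.73, and across all 8889 genes it was 0.15, both given as descriptions of these 2 libraries, in which genes share library and depth. The sign of the tendency was thus opposite in the 10 genes and in all genes, and single members departed from it: norpA (6651 bases) and Arr1 (2207 bases) were both at 0.24, and trpl (3863 bases) was above all 4 shorter members. The median log2 difference of all genes was 0.05 in the longest of 10 length classes of equal size, which holds norpA, Galphaq and rdgA, and -0.01 in the class that holds Arr1, inaC and inaD. Centred on the median of its own length class, trpl was at 0.38, inaC at 0.35, norpA at 0.19, trp at -0.04 and rdgA at -0.26. With level, rho was 0.58 across the 10 genes and -0.08 across all genes.

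**Figure D4:**
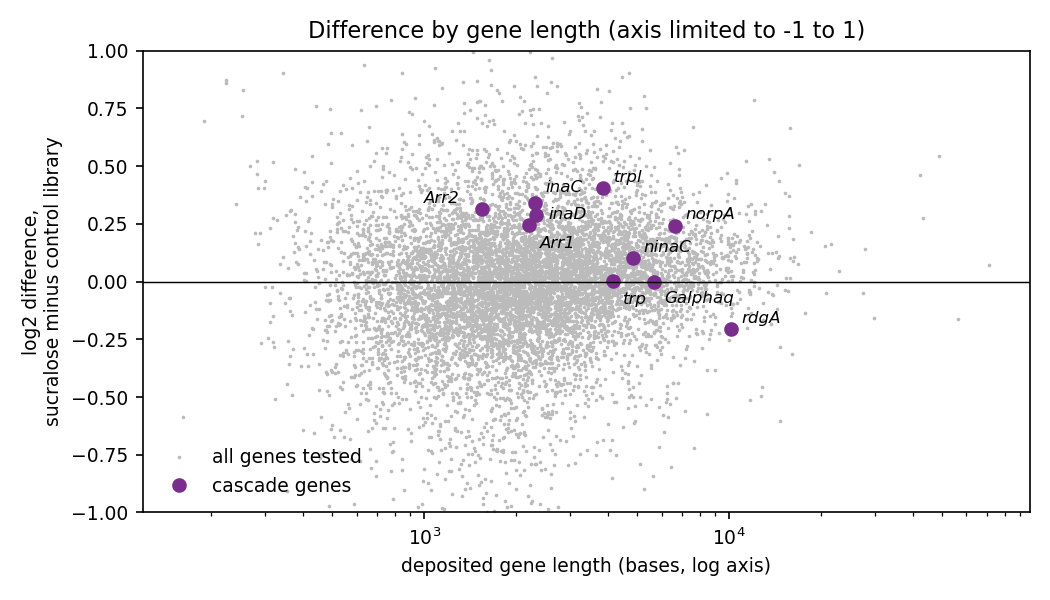
Log2 difference, sucralose minus control library, against the deposited gene length on a log axis for all genes tested (grey) and the 10 cascade genes (purple, named). The genes near 2000 bases lie between 0.24 and 0.34 and rdgA, the longest at 10147 bases, lies at -0.21; the vertical axis is limited to -1 to 1, and some grey points fall outside it.

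Read coverage of the members was nearly complete in both libraries, from 97.6% (Arr1) to 99.97% (trpl) of the gene model in the sucralose library and from 94.15% (Arr1) to 99.9% (ninaC) in the control library. In the annotation used for the overlap check, the 10 genes lie on 5 chromosome arms, with 4 of them (trpl, Galphaq, inaC and inaD) on 2R, 2 each on X (norpA, rdgA) and 2L (Arr1, ninaC), trp on 3R and Arr2 on 3L. For 8 of the 10 no exon base is shared with another gene, and inaD shares 0.300% of its exon bases with RpL23 on the other strand. The deposited length equals the annotated exon length for Arr2, inaD and trp and is shorter for the other 7, among them rdgA (10147 bases deposited and 13764 annotated), for which 11 transcripts are annotated. The files do not separate transcripts, so the values are sums over them.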

How the data were processed

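RNA was taken from heads with Trizol and sequenced on Illumina libraries, per the labels' protocols. The authors deposited 1 table per library, that gives raw counts of unique reads, the length of the gene model, the percent of it that is covered, and RPKM, per the file headers. The counts sum to the totals in the headers, and the deposited RPKM values agreed within a relative difference of 1e-04 with those recomputed from count, length and total. For the aligner, genome build, annotation release and strandedness, nothing is given in the sources used here. Lengths differed between the tables for 7 genes, none of them a member. Since unique reads were counted, reads of near-identical sequences may be missing.

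Identifiers were turned into symbols with a lookup table, and 496 of 12083 genes had no match (6.12% of reads in the sucralose and 6.07% in the control library). TMM factors from edgeR 4.0.16 in R 4.3.3 were 1.002 (sucralose) and 0.998 (control), and differences are log2 of (CPM + 0.5). Median and count summaries use genes with at least 50 summed reads. Ratios of folds are odds ratios of the 4 counts with conditional exact 95% intervals. Intervals cover counting error only, as PCR reads with no molecular identifier need not stem from separate molecules. Named were all 10 members, all matched genes of the other cascade, family and rhodopsin lists, and the ends or summaries of the rest. The members and lists were chosen with earlier results of these data known. Promoter motifs and protein identity, which had been planned, were not analysed here. Alternatives were other scalings, DESeq2 1.42.0 size factors among them, pseudocounts, floors and list summaries. Python 3.11.15 with pandas 2.3.3, numpy 2.4.6, SciPy 1.17.1 and matplotlib 3.10.9 did the rest.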

Additional observations from a re-analysis of the deposited data

How the results depend on the processing

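With 1 library per diet no replicate can be left out, and depth limits only the rarer list genes. No paired analysis was possible because the result comes from no test and each diet has 1 library. Over the planned scalings and the ratio of deposited RPKM, no fold of a member changed its side of 1 beyond its counting interval, and the fold of trp ran from 1.003 to 1.012 and that of Galphaq from 0.999 to 1.008. Only Arr1 and Arr2 left their counting intervals, with DESeq2 size factors (1.19 and 1.26). All scalings kept the median of all genes within 0.01 of 0 on the log2 scale, rounded to 2 decimals. The median log2 difference of the 10 genes was 0.17 as a mean, and, chosen after seeing the data, 0.22 when centred within 10 classes of length and 0.30 within 10 classes of level. The summed fold was 1.19 with upper quartile factors, 1.19 with DESeq2 size factors and 1.14 without Arr1 and Arr2 (added after seeing the data). With a floor of 1000 reads, 0.818% of all genes were at least 1.5-fold higher and 2.35% lower. Among the other lists, that floor left 3 family relatives above 0, 1 lens gene, 2 muscle genes and 0 fat body genes at least 1.5-fold lower, and 1 fat body and 1 clock gene as much higher. A floor of 200 reads left 3 muscle genes lower and 1 fat body gene higher by that mark. Without its most extreme member a list had 0 genes past 1.5-fold higher (other cascade genes) or lower (rhodopsins, fat body, clock), 1 lower (lens), 0 above 0 (neurons), and medians of -0.36 (glia) and 0.52 (fat body). Photoreceptor structure genes, at a median of 0.29, had a mean of 0.14, a median of 0.17 with a floor of 1000 reads and a summed fold of 1.02 (0.993 to 1.04). Means were 0.11 for other cascade genes (median 0.05), 0.27 for rhodopsins and -0.17 for lens genes, whose median is above 0. With no floor the medians were -0.40 for lens and 0.43 for fat body genes. A pseudocount of 0.1 or 5 CPM gave the gut list -5.03 or -2.28, and 5 CPM left 0 rhodopsins lower by 1.5-fold. Centring within classes of level gave 2 rhodopsins higher and 3 glial genes lower by 1.5-fold, and 1 glial gene was above 0 after either centring.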

Other observations

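Among 5 tested genes of the eye's lens and support cells, which surround the photoreceptors, 3 were past 1.5-fold, 1 of them higher and 2 lower. Of all genes tested, 1.96% were as much higher and 4.12% as much lower, and none of the 10 cascade genes named at the start reached this mark. The corneal lens gene retinin had 4121 reads in the sucralose library and 10193 in the control library (0.397-fold, 0.382 to 0.411), and Crys, which encodes the lens protein drosocrystallin, had 87 and 173 reads in the sucralose and control libraries (0.493-fold, 0.377 to 0.642). Cpr72Ec, a cuticle protein gene, had 3476 and 1414 reads in the sucralose and control libraries (2.41-fold, 2.27 to 2.57). The transcription factor genes pros and ct, listed here for cone cells, were at 1.12-fold (1.08 to 1.16) and 1.03-fold (0.954 to 1.11). Whole-head counts do not show which cells their reads came from. These are values of 1 library per diet, with no test.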
